A study of Mus musculus with 6 samples.

Results

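The comparison described here set the 2 RNA libraries labelled mdx/Ripk3mKO against the 2 libraries labelled mdx, both made from mouse muscle stem cells. Its genes were those that reached a scaled count of 10 in 2 or more of these 4 libraries, which held for 13829 of the 14515 genes listed. Of the rest, 497 genes reached that level in 1 of the 4 libraries and 189 in none, while 12935 reached it in all 4. Scaled counts are read counts per gene that were divided by a factor for each library and rounded, so values can be compared between libraries.

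Both groups carry mdx, a mutation of the dystrophin gene that makes the mouse a model of Duchenne muscular dystrophy. The mdx/Ripk3mKO group also carries a change of Ripk3 that the labels write as mKO without spelling it out, and no promoter, Cre driver or age is given. Another pair of libraries, labelled wt for wild type, entered the same fit and is given as a reference. The sources describe the cells in different ways. The sample labels name satellite cells (the stem cells of muscle) in their resting state, of which 10000 to 20000 were sorted and went straight into library preparation. The series text names activated wild-type cells, harvested at 72 hours from below a transwell whose upper chamber held wt, mdx or mdx/Ripk3mKO cells, so that the genotype would be that of the cells above. Groups are therefore called by their labels. The labels tie no library to an animal or culture of its own, so the spread behind each p-value is that between 2 libraries. How much of it is technical was not tested. The 2 mdx/Ripk3mKO libraries differed from each other in sex-linked RNA, with values given below.

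Ripk3 is the kinase of necroptosis, a lytic and inflammatory form of cell death. Downstream of tumour necrosis factor receptors, Ripk1 and Ripk3 assemble when caspase-8 is inactive, and Ripk3 then phosphorylates Mlkl, which breaks the plasma membrane. Satellite cells lie between the muscle fibre and its basement membrane, are held at rest by Notch signals, and on activation divide as Myod1-positive myoblasts before they leave the cell cycle and express myogenin and the contractile genes. The series title names suppression of necroptosis in these cells in dystrophic muscle.

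Limma called 29 of the 14077 genes tested at an adjusted p under 0.05, which is 0.206%. All 29 belong to the 13829 genes of the comparison, and for all 29 the 2 groups did not overlap, as held for 21.0% of all genes with higher and 20.3% with lower values. Higher in mdx/Ripk3mKO were 12 genes, 0.0852% of those tested, and 17 were lower, 0.121%. The lower genes held the larger differences: Egr3, Ppp1r3a, Slc2a4, Cdkn1c and Gm45867 differed by at least 2-fold, and 19 of the 29 differed by less than 1.5-fold. The median absolute log2 fold change was 0.44 over the called genes and 0.097 over all genes tested. No gene with a mean scaled count under 30 was called among 2348 tested, where the median standard error was 0.412, against 0.063 for means between 1000 and 3000.

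**Figure D1:**
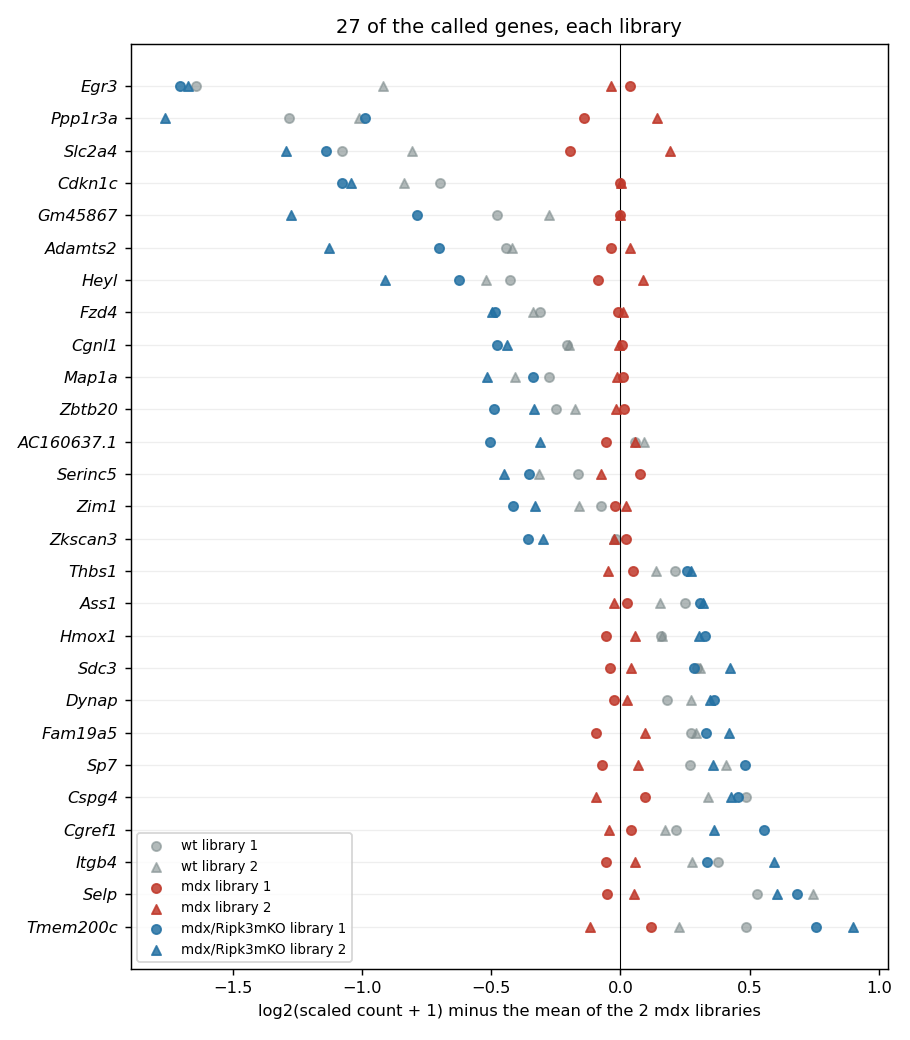
Log2(scaled count + 1) of 27 of the 29 called genes in each of the 6 libraries, relative to the mean of the mdx libraries (horizontal axis), ordered by fold change. Red symbols are mdx, blue are mdx/Ripk3mKO and grey are wt libraries, circles are library 1 and triangles library 2. Both blue symbols lie on the same side of both red symbols for every gene drawn, and Egr3, at 46 and 47 scaled counts, has the largest difference between group means.

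The promoters of 2 lower genes and 1 higher gene are shown because they hold a short motif bound by factors of the cell types and pathways at issue. Promoters here are RefSeq windows of 300 bases on GRCm38.p6, from 250 bases before to 50 after the RefSeq start. They were found for 14 of the 29 genes and for 10091 of the genes tested. Capitals mark CAGCTG, an E-box preferred by myogenic factors such as Myod1, in Ppp1r3a and Adamts2, and TGANTCA, the AP-1 site of Fos and Jun, in Selp.
Ppp1r3a (chr6:14755225-14755524, minus strand): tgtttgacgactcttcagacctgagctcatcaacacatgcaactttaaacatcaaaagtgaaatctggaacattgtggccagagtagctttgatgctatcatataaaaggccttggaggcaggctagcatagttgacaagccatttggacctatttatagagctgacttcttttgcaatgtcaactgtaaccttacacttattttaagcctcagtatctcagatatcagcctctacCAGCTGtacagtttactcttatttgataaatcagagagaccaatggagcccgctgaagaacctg
Adamts2 (chr11:50601835-50602134, plus strand): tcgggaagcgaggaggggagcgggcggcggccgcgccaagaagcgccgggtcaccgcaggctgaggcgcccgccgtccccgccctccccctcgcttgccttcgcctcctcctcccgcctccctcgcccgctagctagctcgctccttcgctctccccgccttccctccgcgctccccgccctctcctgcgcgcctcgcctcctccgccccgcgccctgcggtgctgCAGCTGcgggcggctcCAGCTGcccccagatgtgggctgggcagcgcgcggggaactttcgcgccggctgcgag
Selp (chr1:164115014-164115313, plus strand): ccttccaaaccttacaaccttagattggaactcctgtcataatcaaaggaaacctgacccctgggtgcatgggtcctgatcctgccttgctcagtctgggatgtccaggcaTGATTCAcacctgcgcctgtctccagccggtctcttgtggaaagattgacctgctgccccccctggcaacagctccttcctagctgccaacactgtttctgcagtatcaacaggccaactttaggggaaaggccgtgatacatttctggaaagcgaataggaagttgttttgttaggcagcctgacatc

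Searched on both strands, CAGCTG was found in 3 of the 8 lower genes with a promoter (Ppp1r3a, Adamts2 and Serinc5), in 0 of the 6 higher genes, and in 15.3% of all 10091 promoters. It begins 14 bases before the start of Ppp1r3a, 24 and 8 bases before that of Adamts2, and 11 bases before that of Serinc5. TGANTCA was found in 2 of the 6 higher genes (Selp and Cgref1), in 0 of the 8 lower genes and in 4.69% of all promoters, and begins 139 bases before the start of Selp. TGGGAA, the core read by the Notch effector Rbpj, was found in 3 of 8 lower genes, 1 of 6 higher genes and 22.9% of all promoters. Of 4 further motifs searched, TGACNNNGC, the antioxidant response element, a stretch of which can also match TGANTCA, was found in 2 of 8 lower genes, 0 of 6 higher genes and 15.1% of all promoters. TATAAA, the TATA box, was found in 1 of 8, 0 of 6 and 7.04%. GCGTGGGCG, the site of Egr factors, and the CArG box of Srf were found in none of the 14 genes, and in 1.3% and 1.36% of all promoters. A match is a description of the sequence, not a site of binding.

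Each library's scaled counts summed to between 20611974 and 21037153. Depth went with the labels: the divisors estimated for the scaling were 1.2 and 1.206 in mdx/Ripk3mKO, the deepest libraries, against 0.921 and 0.954 in mdx, so depth and genotype cannot be told apart. A count of 0 allows up to 3 counts, or 2.49 to 3.45 scaled counts, for counting error only. Library 1 of mdx/Ripk3mKO stood apart from the other libraries in sex-linked RNA. Xist, which silences an X chromosome in female cells, was at 6918 there, at 471 in library 2, and at 666 and 369 in the mdx libraries. There the Y-linked Ddx3y was at 373, Eif2s3y at 374, Kdm5d at 216 and Uty at 167, against 1589, 1393, 850 and 641 in library 2. The collagen Col1a1 was at 286 in that library and at 21 in library 2. Among the 10017 genes with a mean of at least 100 over the 4 libraries, 28 differed at least 2-fold within the mdx/Ripk3mKO pair, 7 within the mdx pair and 4 within the wt pair.

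The number of calls depended on single libraries. Without mdx/Ripk3mKO library 1 it was 277, of which 40 were higher and 237 lower, and 26 of the 29 genes were still called. Without library 2 it was 28, with 9 of the 29 still called. It was 13 without mdx library 1, with 6 of the 29 still called, and 1 without mdx library 2. Without wt library 1 or wt library 2, which enter only the estimate of the spread, it was 2. Correction for GC content and exon length left 10 calls, all among the 29, and Dynap was the only higher gene still called. In that fit Sdc3 went from 0.35 to 0.25 and Itgb4 from 0.47 to 0.35. A fit of the 4 libraries alone left 2 calls. All 29 genes kept their direction in each of the 20 other fits made, and each was called in 5 to 18 of them. Across 12378 protein-coding genes the Spearman correlation with the fold change was 0.32 for GC content and -0.17 for exon length, which describes these genes and is no test. GC content had a median of 54.6% over the higher genes, 51.3% over the lower genes and 49.5% over all genes.

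**Figure D2:**
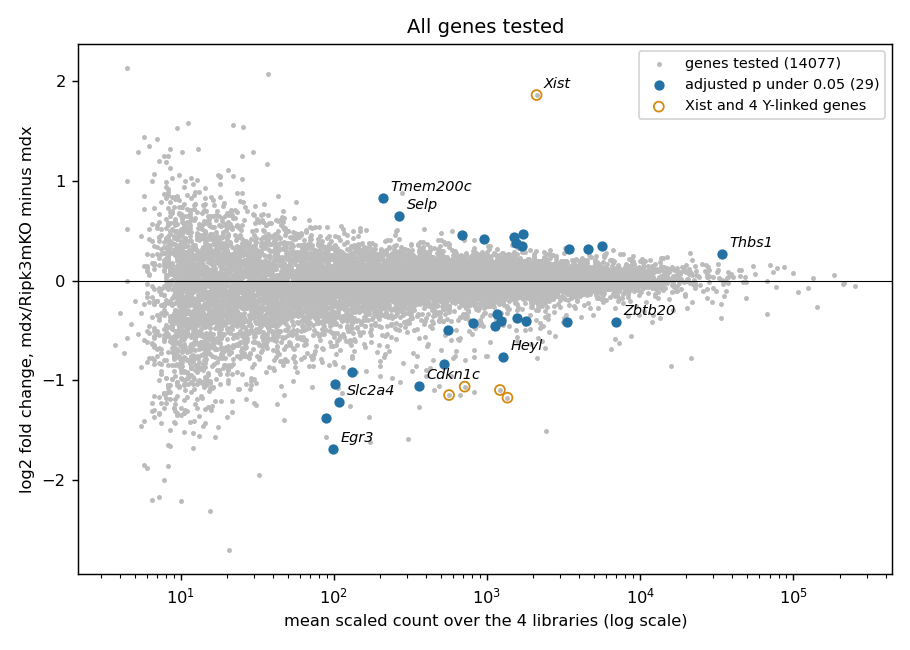
Mean scaled count over the 4 libraries (horizontal axis, log scale) against the log2 fold change of mdx/Ripk3mKO relative to mdx for the 14077 genes tested. Blue points are the 29 called genes and open circles are Xist and 4 Y-linked genes. Low genes scatter widely without being called, and Thbs1, called at 0.27, has the highest level of the called genes.

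The cells of all 4 libraries expressed genes of dividing and differentiating muscle cells. In CPM, scaled counts divided by their library's total, myogenin (Myog) ranged from 1300 to 1660, Myod1 from 904 to 1140, skeletal actin (Acta1) from 3170 to 4060, and Mki67, a marker of dividing cells, from 660 to 820. Pax7, which defines satellite cells, ranged from 84.6 to 103 CPM. Division, Myod1 and myogenin are traits of activated cells, the state in the series text, whereas the sample labels name resting cells. Markers of other cell types were present to different degrees. None of the neutrophil or erythroid genes was tested, and 1 of 12 lymphocyte, 5 of 16 macrophage, 3 of 8 adipocyte, 4 of 12 fibro-adipogenic, 6 of 13 endothelial, 4 of 8 tenocyte, 5 of 9 Schwann cell and 8 of 12 pericyte and smooth muscle genes were. Summed scaled counts in the 4 libraries ranged from 494 to 685 for macrophage, from 4356 to 4998 for Schwann cell and from 41459 to 57187 for pericyte and smooth muscle markers. Most of the last sum was Acta2, smooth muscle actin, which differentiating myoblasts also express, while Myh11 and Cnn1, which define smooth muscle, and Sox10, which defines Schwann cells, are not among the genes analysed here.

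Ripk3 itself overlapped between the groups. It was at 23 and 36 scaled counts in mdx and at 17 and 33 in mdx/Ripk3mKO, beside 45 and 32 in wt. The log2 fold change of -0.27 ± 0.34 had a 95% interval from -1.01 to 0.47 (limma, adjusted p = 0.824). It was 0.19 without mdx/Ripk3mKO library 1 and 0.04 without mdx library 2, so its sign turned. Reads were summed over the whole gene, where loss of a few exons can go unseen. By the series text the cells sequenced were wild type, and the genotype was that of the cells above them. For both reasons Ripk3 does not check the labels. Dystrophin (Dmd) was at 531 and 692 in mdx and at 474 and 294 in mdx/Ripk3mKO (-0.70 ± 0.33, adjusted p = 0.537). The mdx/Ripk3mKO libraries lay below the mdx libraries for Dmd, and library 2 was the lowest of the 4.

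The partners of Ripk3 in necroptosis showed no call. None of the 26 tested genes of the necroptosis and TNF receptor list passed, 14 had higher and 12 lower values, and the median was 0.01 against -0.00 for all genes. The executioner Mlkl was at 140 and 173 in mdx and at 199 and 173 in mdx/Ripk3mKO (0.25 ± 0.14, adjusted p = 0.525). The kinase Ripk1 was at 612 and 620 against 545 and 600 (-0.11 ± 0.08, adjusted p = 0.645). Caspase-8, which cleaves Ripk1 and Ripk3, was at 469 and 506 against 458 and 497, and the pairs overlapped. An unadjusted p under 0.05 was reached by 2 higher genes and no lower gene of the list, where 5.77% of all genes were higher and 5.87% lower at that level, or 11.6% together. They were Rbck1, a subunit of the linear ubiquitin ligase, and the TNF receptor Tnfrsf1b, each at 0.17 ± 0.07 (adjusted p = 0.363 and 0.371).

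Genes of the NuRD complex, the nucleosome remodelling and deacetylase complex that contains Chd4, held no call. Of 15 tested genes 14 had higher values in mdx/Ripk3mKO, and the median was 0.06. The number with lower values was 6 without mdx library 2 and 5 without mdx/Ripk3mKO library 2. It was 1 without mdx library 1 and 1 without mdx/Ripk3mKO library 1. The pairs did not overlap for 6 of them, all higher, where this held for 21.0% of all genes in that direction and for 20.3% with lower values. Chd4, the ATPase, was at 15161 and 15017 in mdx and at 14848 and 15347 in mdx/Ripk3mKO, a log2 fold change of 0.00 with an interval from -0.10 to 0.10. The methyl-binding-domain subunit Mbd3 was at 2533 and 2408 against 2702 and 2864 (0.17 ± 0.06, adjusted p = 0.289).

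Other lists of death and inflammation held no called gene. Of 20 apoptosis regulators 13 had higher values, with a median of 0.02. The survival factor Bcl2 was at 185 and 149 in mdx and at 100 and 119 in mdx/Ripk3mKO (-0.60 ± 0.16, adjusted p = 0.159). The pore-forming Bax was at 1312 and 1339 against 1535 and 1539 (0.21 ± 0.06, adjusted p = 0.166). The pairs did not overlap for either gene, as held for 20.3% of all genes with lower and 21.0% with higher values. Both were named for a small unadjusted p. Of 19 genes of NF-kappaB, cytokines and chemokines 13 had higher values (median 0.06), and of 14 interferon response genes 9 did (median 0.07). The cytokine Il1b was at 47 and 26 in mdx and at 54 and 56 in mdx/Ripk3mKO (0.64 ± 0.27, adjusted p = 0.371).

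The smallest adjusted p belonged to Cdkn1c (ENSMUSG00000037664, mm10 chromosome 7, 143458339 to 143461050, minus strand), an imprinted inhibitor of cyclin-dependent kinases that takes part in the exit of myoblasts from the cell cycle. It was at 486 and 488 in mdx and at 230 and 236 in mdx/Ripk3mKO, beside 300 and 272 in wt. Both mdx/Ripk3mKO libraries were at about the same low level, and the group mean was 47.8% of the mdx mean. Cdkn1c fell by 1.06 ± 0.10 on the log2 scale (limma, adjusted p = 0.000326) and was called in 18 of the 20 other fits. The predicted gene Gm44732 overlaps it on the opposite strand.

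No other gene of its list was called. Among 16 CDK inhibitors, D cyclins and genes of the Rb family, 10 had higher values and 6 lower, with a median of 0.06. The inhibitor Cdkn1a was at 18625 and 16916 in mdx and at 19534 and 17595 in mdx/Ripk3mKO, and Cdkn1b was at 1138 and 1210 against 1134 and 1103. The kinase Cdk4 was at 7957 and 8035 against 9651 and 9008 (0.22 ± 0.05, adjusted p = 0.113), with no overlap, as held for 21.0% of all genes with higher values. Among 28 genes of DNA replication and S phase 20 had higher values (median 0.04), with the ribonucleotide reductase subunit Rrm2 at 18316 and 19206 against 21072 and 20899. Among 27 mitosis genes 11 had higher values (median -0.01). Mki67 was at 15928 and 16904 against 13883 and 15067 (-0.18 ± 0.05, adjusted p = 0.209).

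Heyl (ENSMUSG00000032744, plus strand of chromosome 4, 123233556 to 123249875), a target of Notch signals that itself represses transcription, was also lower. It was at 1502 and 1697 in mdx, at 1035 and 848 in mdx/Ripk3mKO and at 1186 and 1112 in wt. The mdx libraries were the highest of the 6, and Heyl fell by 0.77 ± 0.09 (adjusted p = 0.0162, called in 14 of 20 other fits). Other genes of the Hes and Hey families were not called and had values in both directions. Higher in mdx/Ripk3mKO were Hey1, at 467 and 426 against 589 and 513 (0.30 ± 0.12, adjusted p = 0.351) and Hes6, expressed in committed myoblasts, at 9685 and 8783 against 11122 and 10131 (0.20 ± 0.06, adjusted p = 0.2). Hes1 and Hey2 overlapped between groups, Hes1 at 1222 and 1060 against 1028 and 1188 (-0.04 ± 0.09) and Hey2 at 17 and 21 against 21 and 9 (-0.42 ± 0.47, adjusted p = 0.785). The ligand Dll1 was at 1318 and 1219 against 1466 and 1810 (0.36 ± 0.14, adjusted p = 0.424), and the receptors Notch1 and Notch2 overlapped. Of the 23 Notch genes tested Heyl was the only one called, 14 had higher and 9 lower values, and the median was 0.03.

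Genes of satellite cell identity and of commitment showed no common direction. Of 17 identity genes 7 had higher and 10 lower values (median -0.02), and of 25 commitment and fusion genes 14 had higher and 11 lower values (median 0.05). Called were Sdc3, higher, and Heyl, lower, among identity genes, and Cdkn1c, lower, among commitment and fusion genes. Over all genes tested, 0.0852% were called higher and 0.121% lower. Myod1 was at 19459 and 18636 in mdx and at 22696 and 23595 in mdx/Ripk3mKO. Both mdx/Ripk3mKO libraries were above both mdx libraries, and the difference of 0.28 ± 0.05 did not pass (adjusted p = 0.0528). Myog overlapped, at 34088 and 26795 against 34865 and 33030. Pax7 was at 1811 and 2119 against 1805 and 1755 (-0.14 ± 0.07, adjusted p = 0.493).

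In the list of glucose uptake and glycogen 2 genes were called, both lower, where 0.121% of all genes tested were called lower. Slc2a4 (ENSMUSG00000018566, chromosome 11, 69942543 to 69948164, minus strand), the insulin-responsive glucose transporter of muscle and fat, was at 132 and 173 in mdx, at 68 and 61 in mdx/Ripk3mKO and at 71 and 86 in wt. Both mdx/Ripk3mKO libraries lay below all others, and the gene fell by 1.22 ± 0.19 (adjusted p = 0.0223). Ppp1r3a (ENSMUSG00000042717, chromosome 6, 14713977 to 14755274, minus strand), whose promoter is printed above, targets protein phosphatase 1 to glycogen in muscle. It was at 116 and 141 in mdx, at 64 and 37 in mdx/Ripk3mKO and at 52 and 63 in wt, and fell by 1.37 ± 0.24 (adjusted p = 0.0418). Library 2 was the lower of the mdx/Ripk3mKO libraries for Ppp1r3a.

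Over the whole list of glucose uptake and glycogen, these 2 genes included, 19 of the 27 tested had lower and 8 higher values, with a median of -0.11. Among genes with lower values 12 did not overlap between the pairs, where this held for 20.3% of all genes tested, and among genes with higher values 4 did not, where it held for 21.0%. Glycogen phosphorylase (Pygm) was at 2325 and 2426 in mdx and at 2082 and 1561 in mdx/Ripk3mKO (-0.40 ± 0.13, adjusted p = 0.333). Glycogen synthase (Gys1) overlapped, at 5057 and 4735 against 4998 and 4474. Leaving out mdx/Ripk3mKO library 1 gave the list a median of -0.24, and leaving out library 2 gave -0.02, so its lean rested on library 2.

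Glycolysis itself leaned to higher values, with 14 of 20 genes higher and a median of 0.09. Without mdx/Ripk3mKO library 1 the median was -0.03, and without library 2 it was 0.13. Pyruvate kinase (Pkm) was at 51159 and 52623 in mdx and at 59419 and 55922 in mdx/Ripk3mKO (0.15 ± 0.05, adjusted p = 0.232). The hexokinases differed: Hk1 was at 2472 and 2771 against 3127 and 2977 (0.22 ± 0.06, adjusted p = 0.179) and Hk2, the isoform of mature muscle, at 940 and 992 against 828 and 753 (-0.29 ± 0.07, adjusted p = 0.132). The called transcript AC160637.1 (chromosome 9, 59672814 to 59676700), which lies inside Pkm on the same strand, was at 1976 and 2132 in mdx and at 1447 and 1655 in mdx/Ripk3mKO, and fell by 0.41 ± 0.07 (adjusted p = 0.0291). Its value and that of Pkm thus differed in direction, and reads over the shared stretch cannot be assigned with certainty.

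Excitation and calcium genes had lower values in 18 of 25 cases, with a median of -0.27, and 1 of the lower genes was called. Over all genes tested, 0.121% were called lower. The calcium release channel Ryr1 was at 7511 and 7422 in mdx and at 6417 and 5951 in mdx/Ripk3mKO (-0.27 ± 0.05, adjusted p = 0.0507). The sodium channel Scn4a was at 754 and 744 against 639 and 527 (-0.37 ± 0.09, adjusted p = 0.136), and the calcium channel subunit Cacna2d1 at 2387 and 2370 against 2097 and 1794 (-0.29 ± 0.07, adjusted p = 0.143). For these 3 genes library 2 was the lowest of the 4. Leaving out mdx/Ripk3mKO library 1 gave a median of -0.33, and leaving out library 2 gave -0.11.

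None of the 21 tested genes of the mature myofibre list was called, although 19 had lower values and the median was -0.38. No overlap between the pairs was seen for 14 of the 21 with lower values, against 20.3% of all genes, and for 1 with higher values, against 21.0%. Nebulin (Neb), the ruler of the thin filament, was at 38827 and 37692 in mdx and at 31536 and 27612 in mdx/Ripk3mKO (-0.37 ± 0.08, adjusted p = 0.0987). The fast calcium pump Atp2a1 was at 11876 and 11362 against 10498 and 8390 (-0.31 ± 0.10, adjusted p = 0.301), and titin (Ttn) at 75398 and 74717 against 57593 and 61273 (-0.34 ± 0.14, adjusted p = 0.482). The muscle enolase Eno3 stood on the other side, at 13190 and 12997 against 14689 and 13753 (0.12 ± 0.05, adjusted p = 0.393).

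How far myofibre genes lay below mdx differed between the mdx/Ripk3mKO libraries. The median over the list was -0.67 without library 1 and -0.19 without library 2. Myosin heavy chain Myh1 was at 25820 and 27921 in mdx, at 20849 in mdx/Ripk3mKO library 1 and at 11767 in library 2. The calcium buffer Casq1 was at 932 and 1271 in mdx, at 724 in library 1 and at 349 in library 2. In wt, Myh1 was at 15341 and 18297 and Casq1 at 448 and 558. Among 14 embryonic and fetal contractile genes 11 had lower values, with a median of -0.21, which was -0.43 without library 1 and -0.05 without library 2. Neonatal myosin (Myh8) was at 21405 and 19054 in mdx and at 13636 and 9077 in mdx/Ripk3mKO (-0.86 ± 0.24, adjusted p = 0.377), beside 11679 and 12416 in wt. Embryonic myosin (Myh3) overlapped. Library 2 is the library without the unusual Xist value, and whether either library's sex-linked values bear on these genes was not tested.

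How many contractile genes were called turned on which mdx/Ripk3mKO library was used. With library 2 alone against the mdx pair, 12 of the 21 mature myofibre genes were called lower, among them Neb, Atp2a1, Myh1, Casq1, myoglobin (Mb) and creatine kinase (Ckm), and so were 8 of 14 embryonic and fetal contractile genes. The same fit called 11 of 25 excitation and calcium genes lower, 6 of 23 dystrophin complex genes including Dmd, 6 of 27 genes of glucose uptake and glycogen and 6 of 28 matrix genes, where 1.68% of all genes were called lower. With library 1 alone, no mature myofibre gene was called, and in these other lists only Myh8, the matrix proteoglycan Bgn and 1 excitation and calcium gene were lower, where 0.149% of all genes were. These lists share genes: Atp2a1 and Casq1 count in both the mature myofibre and the excitation and calcium lists. Pygm counts in both the mature myofibre list and that of glucose uptake and glycogen. In such a fit the single library is assumed to vary like the libraries of the other groups, and the difference between the mdx/Ripk3mKO libraries was not tested.

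**Figure D3:**
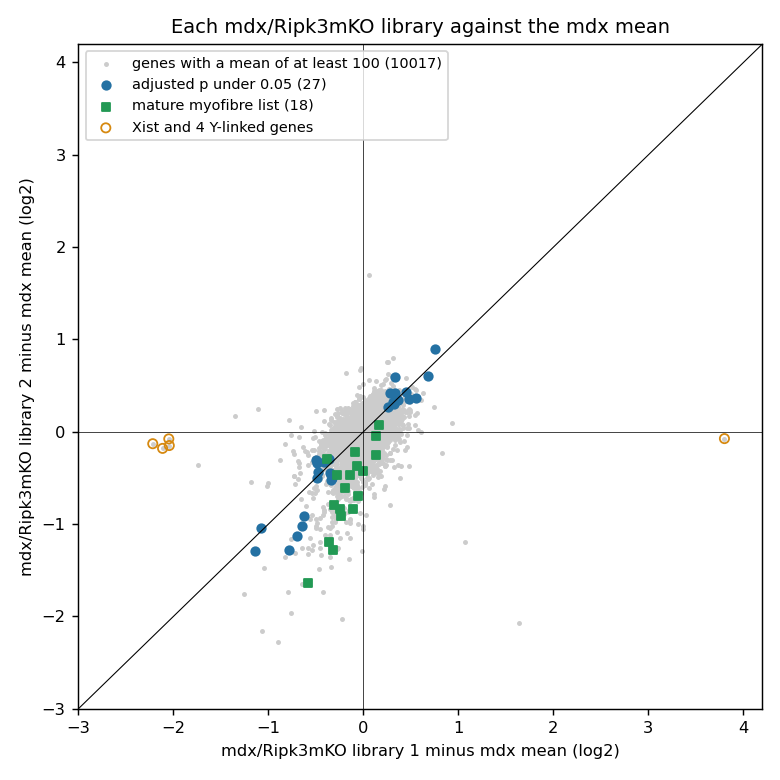
Difference of each mdx/Ripk3mKO library from the mdx mean in log2(scaled count + 1), library 1 on the horizontal and library 2 on the vertical axis, for 10017 genes with a mean of at least 100. The called genes (blue) lie near the diagonal line of equal values, a place that calling itself favours because it rests on a small spread within groups. The mature myofibre genes (green squares) mostly lie lower in library 2 than in library 1. Xist and 4 Y-linked genes (open circles) differ from mdx in library 1.

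The dystrophin complex links the cytoskeleton of the fibre to laminin. Of 23 tested genes 19 had lower values, none was called, and the median was -0.08. Utrophin (Utrn), the relative of dystrophin, was at 6847 and 7080 in mdx and at 6455 and 6235 in mdx/Ripk3mKO (-0.13 ± 0.05, adjusted p = 0.317). The pairs did not overlap for this gene, as held for 20.3% of all genes with lower values.

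Egr3 (ENSMUSG00000033730, chromosome 14, 70077203 to 70082550) had the largest difference of the called genes. It is an immediate early transcription factor, induced rapidly by growth factors and activity. It was at 156 and 148 in mdx, at 46 and 47 in mdx/Ripk3mKO and at 48 and 80 in wt. The mdx/Ripk3mKO mean was 30.6% of the mdx mean, and Egr3 fell by 1.69 ± 0.22 (adjusted p = 0.0127, called in 17 of 20 other fits). Relatives of Egr3 had lower values without a call: Egr2 was at 47 and 73 against 31 and 19 (-1.24 ± 0.37, adjusted p = 0.241) and Egr1 at 3122 and 2228 against 1318 and 1794 (-0.78 ± 0.25, adjusted p = 0.419).

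Immediate early genes as a list did not share that direction. Of 25 tested genes 13 had higher and 12 lower values, the median was 0.00, and Egr3 was the only one called. Fos was at 153 and 136 in mdx and at 89 and 101 in mdx/Ripk3mKO (-0.60 ± 0.16, adjusted p = 0.159). Jun was at 3182 and 2817 against 3274 and 3420 (0.16 ± 0.07, adjusted p = 0.39), and Srf, the serum response factor that drives several of these genes, at 2632 and 2511 against 3019 and 3107 (0.25 ± 0.06, adjusted p = 0.132). The pairs did not overlap for these 3 genes, named for a small unadjusted p, as held for 20.3% of all genes with lower and 21.0% with higher values.

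Procollagen proteases and thrombospondins held 1 lower and 1 higher call among 18 genes tested. Over all genes tested, 0.121% were called lower and 0.0852% higher. Adamts2 (ENSMUSG00000036545, chromosome 11, 50602084 to 50807573), the protease that trims the amino end of procollagens and whose promoter is printed above, was at 167 and 176 in mdx, at 105 and 78 in mdx/Ripk3mKO and at 126 and 128 in wt. It fell by 0.91 ± 0.16 (adjusted p = 0.0393), and the wt libraries lay between the 2 groups. Thbs1, thrombospondin 1, a matrix protein that can activate TGF-beta, was at 32098 and 30023 in mdx and at 37146 and 37503 in mdx/Ripk3mKO. It rose by 0.27 ± 0.05 (adjusted p = 0.0473), the smallest difference among the called genes. With quantile normalization Thbs1 was at 0.24 and was not called (adjusted p = 0.0773).

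Among receptors for matrix, Itgb4, which pairs with the alpha 6 chain to bind laminin, was at 1388 and 1501 in mdx and at 1822 and 2181 in mdx/Ripk3mKO (0.47 ± 0.08, adjusted p = 0.0476). It was the only integrin called of 17, of which 9 had higher and 8 lower values. The heparan sulfate proteoglycan Sdc3, found on satellite cells, was at 4787 and 5073 against 5997 and 6609 (0.35 ± 0.06, adjusted p = 0.0289). The chondroitin sulfate proteoglycan Cspg4, also known as a pericyte marker, was at 1354 and 1185 against 1735 and 1706 (0.44 ± 0.07, adjusted p = 0.0289). These 3 genes rose, and the mdx libraries were the lowest of the 6 for each of them. With GC content and exon length corrected for, none of the 3 was called. Of 14 syndecans, glypicans and other proteoglycans Sdc3 and Cspg4 were called, where 0.0852% of all genes tested were called higher. The list's median was 0.02.

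Selp (ENSMUSG00000026580, chromosome 1, 164115264 to 164150026), P-selectin, is an adhesion molecule of platelets and endothelium. It was at 201 and 216 in mdx, at 335 and 318 in mdx/Ripk3mKO and at 301 and 350 in wt, and rose by 0.64 ± 0.11 (adjusted p = 0.0291). The mdx libraries were the lowest of the 6. Of 13 endothelial markers, which include Selp, 6 were tested, 4 of them had lower values, and the median was -0.20. The defining markers Pecam1 and Cdh5 were at 16 and 8 and at 8 and 14 in mdx, and at 11 and 9 and at 6 and 4 in mdx/Ripk3mKO. Pericyte and smooth muscle markers, which include Cspg4, had 4 higher and 4 lower values among 8 tested genes, with a median of -0.07, and the receptor Pdgfrb was at 409 and 444 in mdx and at 330 and 248 in mdx/Ripk3mKO (-0.57 ± 0.12, adjusted p = 0.0836).

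Extracellular matrix genes mostly had lower values. Of 28 tested, 25 were lower and 3 higher, none was called, and the median was -0.25. Leaving out mdx/Ripk3mKO library 1 gave -0.35, and leaving out library 2 gave -0.17. Of the 28 genes, 16 were lower and 2 higher without overlap between the pairs, where the shares of all genes were 20.3% and 21.0%. The membrane protease Mmp14 was at 825 and 897 in mdx and at 686 and 623 in mdx/Ripk3mKO (-0.40 ± 0.08, adjusted p = 0.0814). The collagen Col12a1 was at 1919 and 2228 against 1641 and 1313 (-0.49 ± 0.11, adjusted p = 0.163), and Col3a1 at 4537 and 5326 against 4237 and 4205 (-0.22 ± 0.07, adjusted p = 0.283). Of markers of other cells that make matrix, 4 of 8 for tenocytes were tested, with a median of -0.33, and 4 of 12 for fibro-adipogenic cells, with a median of -0.07. The summed level of tenocyte markers was 3455 and 3670 in mdx against 3309 and 2912 in mdx/Ripk3mKO, and Col12a1 is itself in that list. The summed level of fibro-adipogenic markers was 3963 and 4215 in mdx against 5308 and 3767 in mdx/Ripk3mKO. The fibro-adipogenic marker Pdgfra was at 29 and 29 against 29 and 32, and Dcn and Lum are not among the genes analysed here. The part of other cells in the matrix values was not tested, and in bulk RNA fewer cells of a type and less RNA per cell cannot be told apart.

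**Figure D4:**
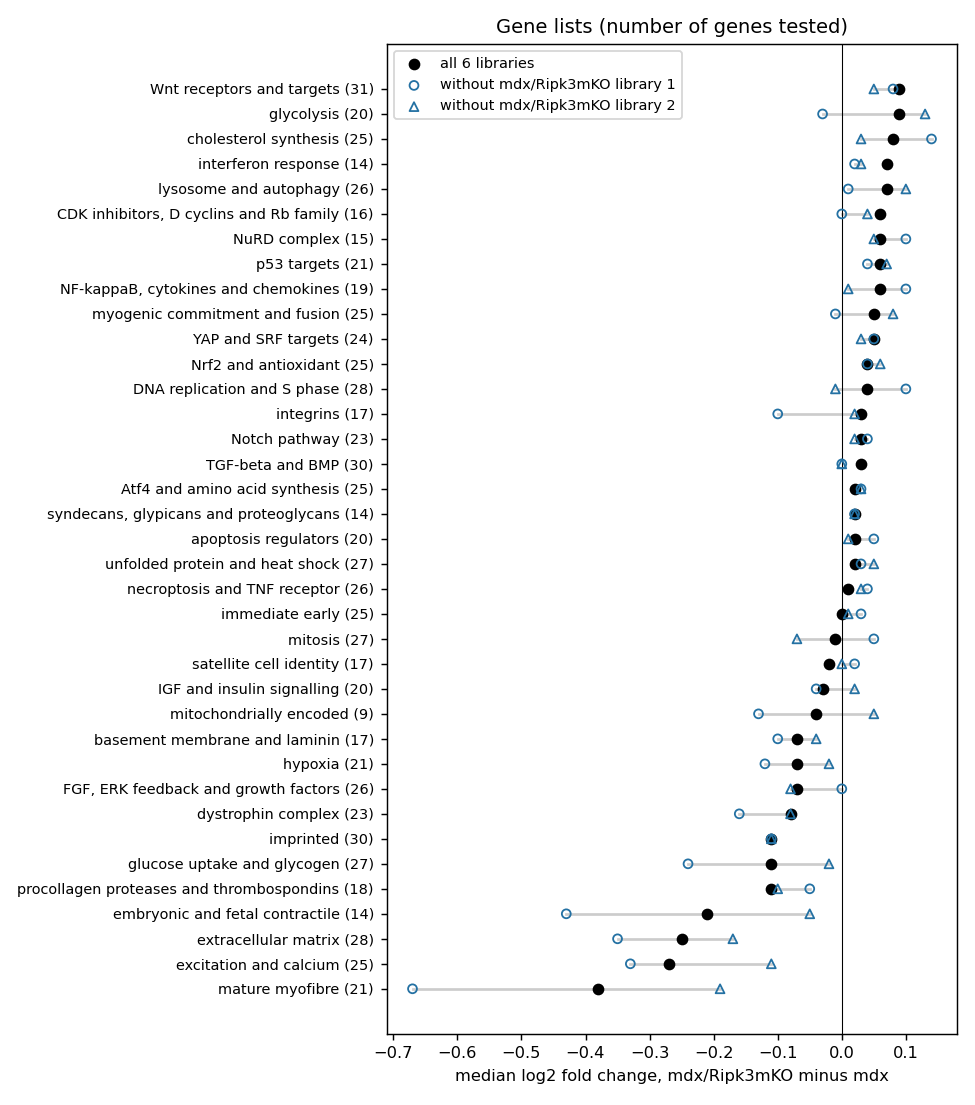
Median log2 fold change of mdx/Ripk3mKO relative to mdx for 37 gene lists, with the number of genes tested in brackets. Filled circles use all libraries, and open circles and triangles leave out mdx/Ripk3mKO library 1 and library 2. The mature myofibre list lies lowest at -0.38 and moves to -0.67 and -0.19, while the imprinted list stays at -0.11 in all 3.

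The list of Wnt receptors and targets held 1 lower call, where 0.121% of all genes tested were called lower. Fzd4, a frizzled receptor for Wnt proteins and norrin, was at 648 and 658 in mdx, at 466 and 463 in mdx/Ripk3mKO and at 526 and 517 in wt. Both groups were tight, and Fzd4 fell by 0.49 ± 0.08 (adjusted p = 0.0234). It was the only one called of 31 Wnt receptors and targets, of which 20 had higher and 11 lower values (median 0.09). The growth factors Tgfb2 and Igf1 had lower values without a call. Tgfb2 was at 1395 and 1214 in mdx and at 983 and 1015 in mdx/Ripk3mKO (-0.38 ± 0.08, adjusted p = 0.0657), and Igf1 was at 561 and 442 against 373 and 277 (-0.63 ± 0.15, adjusted p = 0.159).

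Imprinted genes, which are expressed from 1 parental copy and many of which act on growth, held 2 calls, both lower. Of all genes tested, 0.121% were called lower. Beside Cdkn1c this was Zim1 (ENSMUSG00000002266, chromosome 7, 6671269 to 6696450, minus strand), a zinc finger gene near Peg3. Zim1 was at 1752 and 1801 in mdx, at 1331 and 1414 in mdx/Ripk3mKO and at 1688 and 1588 in wt, and fell by 0.37 ± 0.06 (adjusted p = 0.0289). Peg3 was at 30384 and 30795 against 28527 and 29657 (-0.07 ± 0.05, adjusted p = 0.574). The groups did not overlap there either, as held for 20.3% of all genes with lower values.

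Of the 30 imprinted genes tested 21 had lower and 9 higher values, and the median was -0.11 with all libraries and without either mdx/Ripk3mKO library. The pairs did not overlap for 14 genes, all of them lower, and an unadjusted p under 0.05 was reached by 7 lower genes and no higher gene. Over all genes tested, 20.3% did not overlap and were lower, and 5.87% were lower at that p. Neuronatin (Nnat) was at 45 and 43 in mdx and at 19 and 17 in mdx/Ripk3mKO (-1.25 ± 0.26, adjusted p = 0.0792). The noncoding RNA Airn was at 222 and 181 against 147 and 147 (-0.44 ± 0.14, adjusted p = 0.243), and the receptor adaptor Grb10 at 30220 and 27391 against 25984 and 25080 (-0.17 ± 0.06, adjusted p = 0.246). The abundant H19 overlapped between groups, at 193965 and 165814 against 184114 and 188314, as did Igf2, at 38885 and 35963 against 38043 and 31858.

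**Figure D5:**
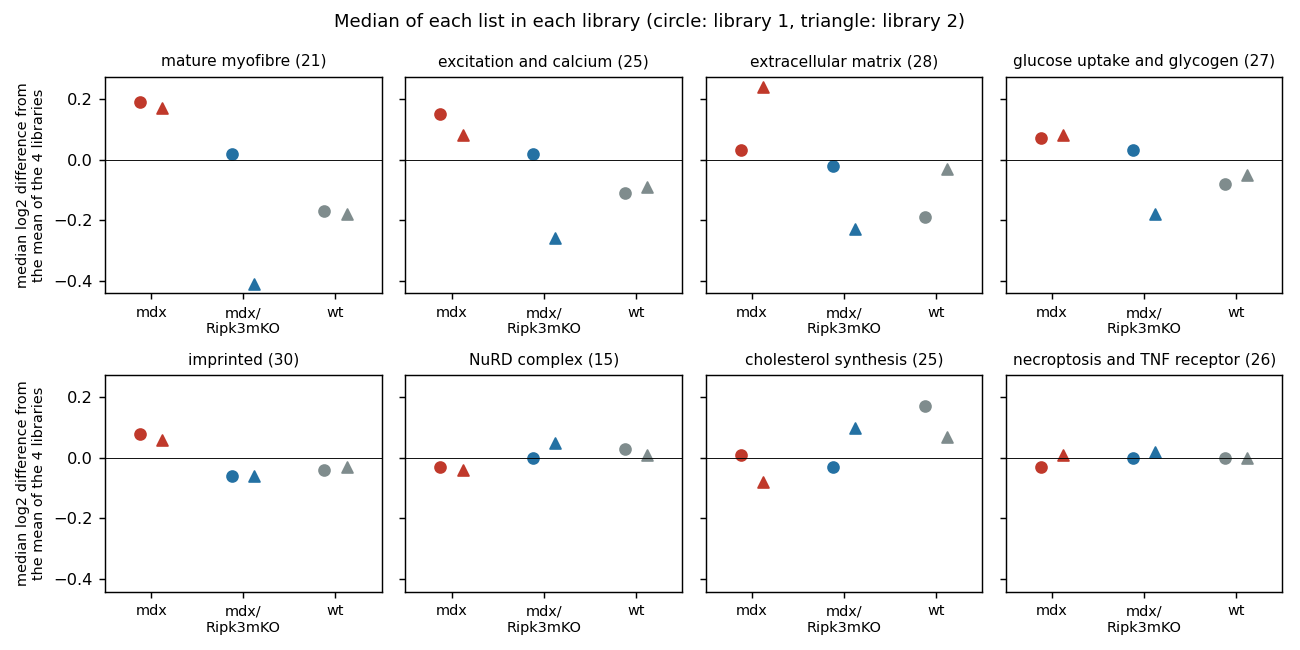
Median, over the genes of a list, of each library's log2(scaled count + 1) minus the mean of the 4 mdx and mdx/Ripk3mKO libraries (vertical axis), for 8 lists, with mdx in red, mdx/Ripk3mKO in blue and wt in grey. In the mature myofibre list mdx/Ripk3mKO library 1 lies at 0.02 and library 2 at -0.41, with mdx at 0.19 and 0.17 and wt at -0.17 and -0.18. In the imprinted list both mdx/Ripk3mKO libraries lie at -0.06, below mdx at 0.08 and 0.06, with wt at -0.04 and -0.03.

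The Nrf2 and antioxidant list and the list of Atf4 and amino acid synthesis each held 1 call, and both genes were higher. Over all genes tested, 0.0852% were called higher. Hmox1 (ENSMUSG00000005413, chromosome 8, 75093621 to 75100589), haem oxygenase 1, breaks down haem and is induced by oxidative stress through Nrf2. It was at 3931 and 4240 in mdx, at 5120 and 5041 in mdx/Ripk3mKO and at 4556 and 4565 in wt, and rose by 0.32 ± 0.05 (adjusted p = 0.0291). The wt libraries lay between the groups. Of 25 genes of the Nrf2 and antioxidant list 20 had higher values, Hmox1 was the only one called, and the median was 0.04. Ass1 (ENSMUSG00000076441, chromosome 2, 31470207 to 31520672), argininosuccinate synthase, makes the precursor of arginine. It was at 3113 and 3004 in mdx, at 3786 and 3819 in mdx/Ripk3mKO and at 3635 and 3399 in wt, and rose by 0.31 ± 0.05 (adjusted p = 0.0352). Of 25 genes of Atf4 and amino acid synthesis 17 had higher values, and the median was 0.02. Neither Hmox1 nor Ass1 was called with GC content and exon length corrected for.

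Of 21 p53 targets 14 had higher values (median 0.06), with the stress hormone Gdf15 at 121 and 128 in mdx and at 154 and 168 in mdx/Ripk3mKO (0.37 ± 0.14, adjusted p = 0.329). Of 27 genes of the unfolded protein and heat shock responses 19 had higher values (median 0.02). The chaperone Calr was at 18309 and 18532 against 20193 and 19647 (0.11 ± 0.05, adjusted p = 0.365).

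Zbtb20, Zkscan3 and Sp7, which act on transcription, were called as well. Zbtb20, a zinc finger repressor, was at 8017 and 7848 in mdx, at 5646 and 6289 in mdx/Ripk3mKO and at 6666 and 7020 in wt, and fell by 0.41 ± 0.06 (adjusted p = 0.0146). Other genes lie within it on both strands, so part of its reads may be theirs. Zkscan3, a zinc finger protein known to repress autophagy genes, was at 1305 and 1264 against 1002 and 1043 and fell by 0.33 ± 0.06 (adjusted p = 0.0476). In wt it was at 1269 and 1264, close to mdx. Sp7, the osteoblast factor osterix, was at 781 and 860 in mdx and at 1146 and 1051 in mdx/Ripk3mKO, and rose by 0.42 ± 0.08 (adjusted p = 0.0442).

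Cgnl1, Map1a, Serinc5 and the transcript Gm45867 were also lower. Cgnl1, a protein of cell junctions related to cingulin, was at 1306 and 1294 in mdx and at 934 and 959 in mdx/Ripk3mKO, and fell by 0.46 ± 0.06 (adjusted p = 0.0127, called in 13 of 20 other fits). Map1a, which binds microtubules, was at 941 and 926 against 739 and 652 and fell by 0.43 ± 0.08 (adjusted p = 0.0473). Serinc5, a membrane protein known to restrict retroviruses, was at 1467 and 1324 against 1091 and 1020 and fell by 0.40 ± 0.07 (adjusted p = 0.0453). The transcript Gm45867, inside Tm6sf1 on the same strand, was at 137 and 137 against 79 and 56 and fell by 1.03 ± 0.18 (adjusted p = 0.0396). The groups did not overlap for any of these genes, and wt values of Cgnl1, at 1126 and 1131, lay between them.

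The other higher genes were Tmem200c, Cgref1, Dynap and Fam19a5. The transmembrane gene Tmem200c had the largest increase: it was at 164 and 139 in mdx, at 256 and 283 in mdx/Ripk3mKO and at 212 and 177 in wt, and rose by 0.83 ± 0.13 (adjusted p = 0.0289). Cgref1, a secreted protein with EF hands, was at 591 and 557 against 843 and 737 and rose by 0.46 ± 0.08 (adjusted p = 0.0393). Dynap, named for its binding to dynactin, was at 1469 and 1522 against 1920 and 1901 and rose by 0.35 ± 0.06 (adjusted p = 0.0291). Fam19a5, a secreted chemokine-like protein, was at 1261 and 1436 against 1691 and 1800 and rose by 0.37 ± 0.07 (adjusted p = 0.0453, called in 5 of 20 other fits).

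Large differences were not always called. Of the 10017 genes with a mean of at least 100, 20 had values at least 2-fold lower in mdx/Ripk3mKO, and 3 of these were called (Slc2a4, Cdkn1c and Gm45867). Egr3 and Ppp1r3a, the other called genes past that size, have lower means. Without mdx/Ripk3mKO library 1 the number was 58, and without library 2 it was 15. Of the 20, 4 were the Y-linked genes, which were low in library 1 alone. The only gene at least 2-fold higher was Xist, in the same library.

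Among genes with a mean of at least 100 and no overlap between the groups, the uncalled genes with the lowest fold changes also differed between the libraries of a group. The Z-disc protein myotilin (Myot) was at 211 and 304 in mdx and at 120 and 56 in mdx/Ripk3mKO (-1.61 ± 0.49, adjusted p = 0.371). The collagen chain Col6a3 was at 273 and 632 against 222 and 85 (-1.59 ± 0.75, adjusted p = 0.555). Capn6, a calpain without protease activity, was at 3207 and 3914 against 1482 and 1047 (-1.51 ± 0.28, adjusted p = 0.264), with 1368 and 1854 in wt. For all 3 genes mdx library 2 was the highest of the 4 and mdx/Ripk3mKO library 2 the lowest. The nuclear receptor Esrrg, at 194 and 289 against 139 and 60 (-1.36 ± 0.53, adjusted p = 0.469), followed the same order.

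Among higher values that missed the threshold, the adhesion receptor Adgrg3 was at 291 and 345 in mdx and at 432 and 475 in mdx/Ripk3mKO (0.51 ± 0.10, adjusted p = 0.0562). The transcription factor Tox2 was at 524 and 451 against 714 and 666 (0.50 ± 0.10, adjusted p = 0.0701), and the plexin Plxnc1 at 222 and 198 against 300 and 294 (0.50 ± 0.11, adjusted p = 0.0911). The groups did not overlap for these 3 genes, which the rule for naming them required, and 21.0% of all genes were higher without overlap. The deiodinase Dio2, which activates thyroid hormone, was at 227 and 196 against 355 and 254 (0.51 ± 0.16, adjusted p = 0.271) and stood higher in mdx/Ripk3mKO library 1 than in library 2.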

How the data were processed

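RNA was sequenced in 6 libraries (2 each of mdx/Ripk3mKO, mdx and wt), made from 10000 to 20000 cells with a Takara SMARTer low-input stranded total RNA kit, version 2, per the labels' protocols. Named in the submitters' processing notes, without order or roles, are DESeq2 1.18.1, featureCounts 1.6.3, STAR 2.6.1d, Trimmomatic 0.36 and the mm10 build. The deposited values are whole numbers that the authors had scaled between libraries, so each is a score (a scaled count) and not a raw count, judged from the values. The planned count model needs raw counts and was not used. No label states whether counting used strand. Both mdx columns carry one header, so mdx library 1 and 2 are names only.

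Genes with at least 10 in at least 2 of 6 libraries were tested (14077, with 438 left out, and 248 of those tested are outside the 13829 of the comparison). Limma 3.58.1 in R 4.3.3 was fitted to log2(scaled count + 1) of all 6 libraries with genotype as the only term, a variance trend and robust moderation (statmod 1.5.0), with Benjamini-Hochberg adjustment at 0.05. Errors are moderated standard errors and intervals are 95%. Fold changes on this scale understate low genes. The fit was also run on simulated counts with the same depth in all libraries. That run did not include the depth differences between groups found here. The 37 gene lists, 11 cell type lists and the genes of the comparison were chosen with earlier results of these data known. Named are Ripk3 and Dmd, the called genes, list members with the smallest unadjusted p, the 12 largest differences each way at a mean of at least 100 without overlap, and markers. Genes named outside this rule for contrast, such as Cdkn1a, Casp8, Hes1, Hey2, Gys1, Chd4, H19, Igf2, Peg3, Ttn, Myh1, Myh3, Notch1, Notch2, Casq1 and Mlkl, were chosen after their values were seen. GC content and exon length came from GENCODE M21, which held 14502 of the 14515 identifiers, and coordinates are those of the deposited table. A few genes that this rule covers, 2 called genes among them, are not reported here by name.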

Additional observations from a re-analysis of the deposited data

How the results depend on the processing

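The count of 29 genes lay between 23 and 36 with a pseudocount of 0.5 or 8, without a filter, with the filter on the 4 libraries compared, in CPM, and with quantile normalization, voom or array weights. It was 18 with at least 50 in at least 2 libraries, 10 with GC content and exon length corrected for, 5 with a variance trend without robust fitting, 2 with only the 4 libraries compared, and 1 without a variance trend, with or without robust fitting (the last added after the data were seen). That 1 gene was Cpne9, at 14 and 13 scaled counts in mdx and 3 and 3 in mdx/Ripk3mKO and named here after its values were seen, which is not among the 29, and none of the 29 was called in these 2 fits. Leaving out 1 library gave 1 to 277. Why the count changed was not tested. The fits that changed only the variance trend or robust fitting held the same genes and libraries as the main fit. The 29 genes kept their direction in all 580 values that the 20 other fits gave for them, with the call kept in 299 and lost in 281. Of 840 list medians 78 moved beyond the spread used.

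Among uncalled genes 29 of 1755 values turned sign. Leaving out 1 library at a time, the log2 fold change ran from -0.25 to 0.13 for Acta1, -0.01 to 0.14 for Cdkn1a, -0.02 to 0.02 for Chd4, -2.07 to 1.64 for Col1a1, -1.88 to 0.70 for Gm42418, -0.13 to 0.03 for Gys1, -0.06 to 0.17 for H19, -0.15 to 0.06 for Hes1, -0.99 to 0.14 for Hey2, -0.23 to 0.02 for Igf2, -1.19 to 1.07 for Impact, -2.60 to 0.50 for Mir6236, -0.01 to 0.34 for Myog, -0.11 to 0.04 for Notch2, -0.73 to 0.19 for Ripk3 and -0.07 to 3.80 for Xist. Chd4 was at -0.00 in CPM and with voom, -0.01 with quantile normalization and -0.03 with GC and length corrected for, and H19 at 0.00 with quantile normalization. In 50 of the 1755 values a named gene that had not been called was called with its direction kept.

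No paired analysis was possible because both mdx columns carry the same header and so no replicate number of their own. Depth limits low genes: under a mean of 30 the median standard error was 0.412.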

Other observations

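Further gene groups held no call. Of 25 genes of cholesterol synthesis 19 had higher and 6 lower values in mdx/Ripk3mKO, with a median of 0.08. Leaving out mdx/Ripk3mKO library 1 gave 0.14, and leaving out library 2 gave 0.03. The sterol enzyme Hsd17b7 was at 969 and 936 scaled counts in mdx and at 1053 and 1200 in mdx/Ripk3mKO (0.24 ± 0.07, limma, adjusted p = 0.231). Of 21 hypoxia genes 17 had lower values (median -0.07), with the collagen prolyl hydroxylase P4ha1 at 2700 and 2476 against 2445 and 1993 (-0.23 ± 0.09, adjusted p = 0.364). Of 26 lysosome and autophagy genes 18 had higher values (median 0.07). The lysosomal protease Ctsd was at 4183 and 4221 against 5290 and 4746 (0.25 ± 0.06, adjusted p = 0.0987), and Ctsb at 4892 and 4895 against 5862 and 5290 (0.19 ± 0.06, adjusted p = 0.241). The pairs did not overlap for these 4 genes, which were named for a small unadjusted p. Over all genes, 20.3% did not overlap with lower values and 21.0% with higher values.

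The imprinted gene Impact differed more within each pair of libraries than between the groups. It was at 471 and 1980 in mdx, at 2023 and 422 in mdx/Ripk3mKO and at 480 and 2081 in wt, so that each pair held 1 low and 1 high library. The log2 fold change between groups was -0.06 ± 1.48 (adjusted p = 0.996), and the imprinted median given above includes it. The short gene Mir6236 and the noncoding gene Gm42418 were high in 1 mdx library: Mir6236 was at 1304 and 152 in mdx and at 133 and 346 in mdx/Ripk3mKO, and Gm42418 was at 1445 and 240 against 230 and 666.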
